A study of Ictidomys tridecemlineatus with 15 samples.

Results

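Complex I, the NADH:ubiquinone oxidoreductase of the mitochondrial respiratory chain, was followed through its nuclear-encoded genes in hypothalamic tissue, the supraoptic nucleus, of the thirteen-lined ground squirrel. The members were the genes whose symbol starts with Nduf, without Ndufaf8, and whose mean over the 15 libraries was at least 1 normalised CPM (CPM is a read count divided by the depth of its library, here scaled further by a factor per library). This gave 45 of the 16993 genes in the table: 38 under subunit symbols (Ndufa, Ndufb, Ndufc, Ndufs and Ndufv) and 7 assembly factors (Ndufaf1 to Ndufaf7). The threshold removed no gene. The lowest member was Ndufa4l2, with a mean of 2.01 normalised CPM and 23 to 69 reads per library, and the next were Ndufaf2 with 7.31 and Ndufaf6 with 23.9. All 45 also passed the filter on low values used for the tests.

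Complex I is shaped like an L. Its matrix arm takes electrons from NADH through a flavin and a chain of iron-sulfur clusters to ubiquinone, and its membrane arm pumps protons, which drive ATP synthesis. The core of the membrane arm is encoded in mitochondrial DNA and is not analysed here, while the core of the matrix arm and all accessory subunits are nuclear genes. Assembly factors build and join the parts and are absent from the finished enzyme. Neurons depend heavily on respiration for their ATP. In the liver of hibernating ground squirrels, mitochondrial respiration is reversibly lowered in torpor. Not every Nduf symbol names a subunit: Ndufa4 is now placed with cytochrome c oxidase, Ndufa4l2 is its hypoxia-induced relative, and Ndufab1 is also the acyl carrier protein of mitochondrial fatty acid synthesis.

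The libraries fell into 3 states with 5 biological replicates each, per the design text: torpor, the cold and inactive phase of hibernation; interbout arousal (IBA), the brief warm phase between bouts of torpor in hibernating animals; and active animals outside hibernation. The labels give no genotype, treatment, age or sex. The nucleus was cut by hand from brain slices, so RNA of neurons, glia and vessels was measured together, and in such bulk RNA fewer cells of a type cannot be told apart from less RNA per cell. The nucleus is defined by its vasopressin and oxytocin neurons, and vasopressin and oxytocin are not analysed here. Recovered reads numbered 21570371 to 26113341 per library in torpor libraries, 19320883 to 23621875 in IBA libraries and 15844561 to 21216931 in active libraries, and 1 read was worth 0.0409 to 0.0626 normalised CPM. Torpor libraries 4 and 5 held the highest summed level of the 12 measured oligodendrocyte markers, 12327 and 14629.5 normalised CPM, against 4328 to 8993 in the other torpor libraries, so counts are also given without these libraries.

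Summed over the 38 subunit symbols, the level was 8512, 10053, 9425, 8763 and 8296 normalised CPM in torpor libraries 1 to 5, 7887, 7418, 7384, 8037 and 7027 in IBA libraries 1 to 5, and 7311, 7348, 8032, 8292 and 7879.5 in active libraries 1 to 5. Every torpor library lay above every IBA and active library, while IBA and active libraries overlapped. The lowest torpor library (8296.1) and the highest active library (8291.8) nearly met. The means were 9009.8 ± 721 for torpor, 7551 ± 409 for IBA and 7773 ± 430.4 for active libraries (SD, n = 5 each), so that torpor lay 19.3% above IBA and 15.9% above active. Part of this gap came with the scaling factor per library, which was 0.936 to 0.990 in torpor libraries, 0.999 to 1.04 in IBA libraries and 1.01 to 1.04 in active libraries. As a plain share of the counted reads, the 38 symbols took 0.821% to 0.941% in torpor libraries, 0.702% to 0.828% in IBA libraries and 0.743% to 0.840% in active libraries. On that scale torpor libraries overlapped those of both other states, and the gaps of the means were 11.8% to IBA and 9.40% to active. The 7 assembly factors summed to 261 ± 30.4 normalised CPM in torpor libraries, 232 ± 22.8 in IBA libraries and 262 ± 14.1 in active libraries, with all 3 states overlapping. These sums are a description, since the most abundant members weigh most in them.

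**Figure D1:**
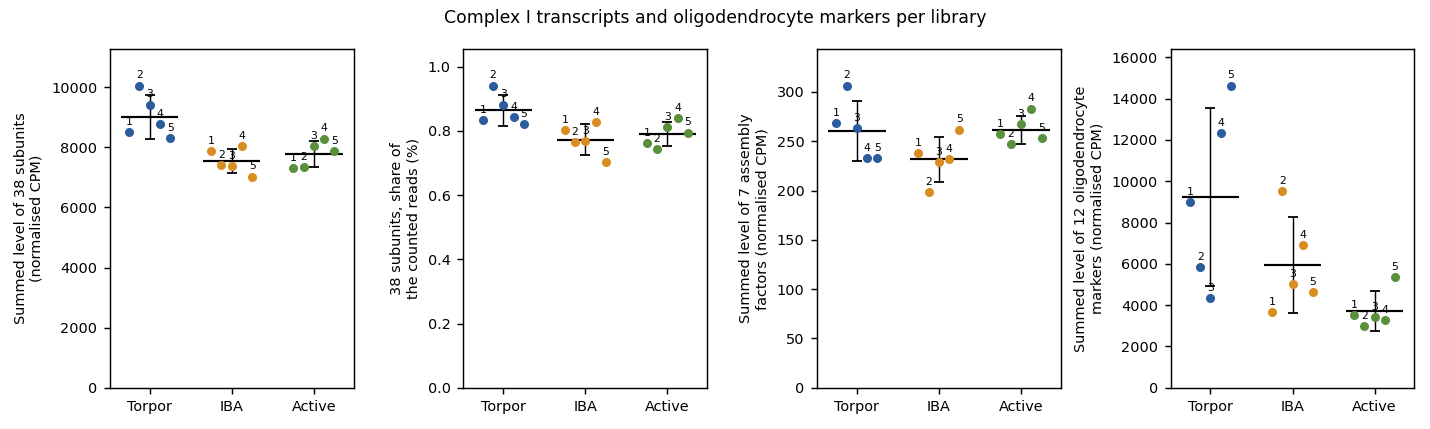
Summed level of the 38 subunit symbols in normalised CPM, their share of the counted reads in percent, the summed level of the 7 assembly factors and of 12 oligodendrocyte markers in normalised CPM, by state (Torpor, IBA, Active). Points are libraries with their number, lines the mean and bars the SD (n = 5); for subunit levels every torpor point (8296 or more) lies above every IBA and active point, and for the other 3 quantities the states overlap.

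The first comparison, torpor over active, asks which complex I transcripts differ in the cold phase. Of the 45 members 11 rose and none fell at an adjusted p under 0.05 (limma over 15501 genes), and of all genes tested 9.73% rose and 9.74% fell. The 11 were 10 of the 38 subunit symbols (10 of 36 without Ndufa4 and Ndufa4l2) and 1 of the 7 assembly factors. Ndufa10 and Ndufa11, accessory subunits of the membrane arm, stood apart with folds of 1.65 and 1.61, and the other rises ran from 1.19-fold to 1.34-fold. Differences are on the scale of log2(value + 1). The members' median log2 fold change was 0.17 and 39 of 45 were above 0, against 0.01 and 50.9% over all genes tested. Without torpor libraries 4 and 5 the count was 12 with a median of 0.20, and 1099 of all genes tested rose. Without torpor library 2 it was 9 with a median of 0.13, and 1726 of all genes rose. The count was 6 without torpor library 3 and 7 without active library 2 or active library 5, where 1131, 1188 and 1218 of all genes rose. With reads scaled by library size alone, 7 members rose and 31 of 45 were above 0, and all genes split into 1051 higher and 2274 lower instead of 1508 and 1510.

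Among the core subunits of the matrix arm, 3 of 7 rose and all 7 had log2 fold changes above 0 (median 0.26). Over all genes tested, 9.73% rose and 50.9% were above 0. Ndufv1, which binds NADH and the flavin and so takes in the electrons, stood at 294, 294, 291, 256 and 237 normalised CPM in torpor libraries 1 to 5, and at 222, 207, 230.2, 204 and 225 in active libraries 1 to 5. The states did not overlap, with torpor libraries 4 and 5 nearest to the active ones. Its log2 fold change was 0.33 ± 0.09 (SE, limma adjusted p = 0.0148). Ndufs3, a subunit of the module that passes electrons to ubiquinone, stood at 69.9, 80.5, 85.3, 80.8 and 94.8 in torpor and at 65.5, 69.0, 71.5, 65.97 and 69.3 in the active state. Torpor library 1 lay inside the active range and library 5 was highest. The log2 fold change was 0.26 ± 0.09 (adjusted p = 0.0402), and it lost its call in 7 of 10 fits that left out 1 library (each but torpor 1 and 2 and active 3). Without torpor libraries 4 and 5 together it was 0.20 ± 0.09 and did not pass (limma adjusted p = 0.152). Ndufs1, which carries iron-sulfur clusters, did not pass, at 0.30 ± 0.11 (adjusted p = 0.0711): torpor libraries 1 to 3 held 234 to 271, and libraries 4 and 5 held 178 each, inside the active range of 164 to 195. Ndufs8, another cluster-bearing subunit, had the smallest difference of the core, 0.03 ± 0.09 (adjusted p = 0.851).

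Of the 9 accessory subunits of the matrix arm, 2 rose and all 9 were above 0 (median 0.17). Among all genes tested, 9.73% rose and 50.9% were above 0. Ndufa7 stood at 126, 163, 145, 142 and 121 normalised CPM in torpor libraries 1 to 5 and at 106, 97.7, 127, 118 and 102 in active libraries 1 to 5. Torpor libraries 1 and 5 lay inside the active range. Its log2 fold change was 0.34 ± 0.10 (limma adjusted p = 0.0225), and without torpor library 3, active library 2 or active library 5 it did not pass. Ndufa9, which sits at the junction of the arms and belongs to the short-chain dehydrogenase family, stood at 208, 287, 248, 171 and 179 in torpor and at 152, 174, 156, 195 and 165 in the active state. Torpor libraries 2 and 3 were far above the rest, and libraries 4 and 5 lay inside the active range. Its difference was 0.35 ± 0.12 (adjusted p = 0.0466), and the call ended in 7 of 10 fits that left out 1 library (each but torpor 4 and 5 and active 4). Without torpor libraries 4 and 5 together it was 0.55 (adjusted p = 0.00494). Over all alternatives the Ndufa9 call held in 12 of 22. The others did not pass, and among them Ndufa6 was highest at 0.23 ± 0.10 and Ndufa2 lowest at 0.02 ± 0.09 (adjusted p = 0.104 and 0.901).

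Of the 9 accessory subunits of the membrane arm near the junction, 3 rose and all 9 were above 0 (median 0.18). The shares over all genes tested were 9.73% and 50.9%. Ndufa10, a member of the nucleoside kinase family, stood at 161, 176, 193, 166 and 143 normalised CPM in torpor libraries 1 to 5, at 135.1, 119.6, 122, 136 and 145 in IBA libraries and at 106, 99.0, 107, 88.4 and 105 in active libraries. All 10 libraries of hibernating animals lay above all active ones. The torpor over active log2 fold change was 0.72 ± 0.09 (limma adjusted p = 1.30e-04). Ndufa11, which lies where complex I meets complex III in respiratory supercomplexes, stood at 197, 258, 272, 307 and 247 in torpor, at 193, 189, 181, 205 and 153 in IBA and at 155, 156, 175, 148 and 154 in the active state. Torpor was above active in every library, with torpor library 1 lowest. The log2 fold change was 0.69 ± 0.11 (adjusted p = 6.15e-04). Both calls held in all 22 alternative fits, with adjusted p from 4.58e-11 to 0.00432 for Ndufa10 and from 2.10e-07 to 0.0324 for Ndufa11. Ndufc1, a small membrane subunit, did not overlap between the states, at 334, 326, 307, 338 and 311 in torpor and 265, 239, 296, 274 and 284 in the active state. Its difference of 0.25 ± 0.09 lay at the threshold (adjusted p = 0.0469), and the call held in 4 of 22 alternatives and, with 1 library left out, only without active library 3. The other 6 ran from Ndufa3 at 0.06 ± 0.09 to Ndufa13 at 0.21 ± 0.09 (adjusted p = 0.683 and 0.106).

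The Ndufb subunits, which make up the far part of the membrane arm, were the only structural group of subunits with log2 fold changes on both sides of 0. Of 10 measured, 2 rose and 7 were above 0 (median 0.13), where 9.73% of all genes tested rose and 50.9% were above 0. Ndufb7, held together by disulfide bonds on the outer face of the inner membrane, stood at 155, 201, 172, 202 and 163 normalised CPM in torpor libraries 1 to 5 and at 138, 125, 137, 132 and 132 in active libraries 1 to 5. The states did not overlap, and torpor libraries 2 and 4 were highest. The log2 fold change was 0.42 ± 0.11 (limma adjusted p = 0.0131). Ndufb9, a protein of the LYR motif family, stood at 484, 578, 507, 506 and 455 in torpor and at 370.3, 394, 405, 465 and 407 in the active state. Torpor library 5 lay under active library 4, the highest of its state, and the difference was 0.31 ± 0.09 (adjusted p = 0.0185). Ndufb4 did not pass, at 0.23 ± 0.09 (adjusted p = 0.0804), although its 5 torpor libraries (338 to 380.0) lay above its 5 active ones (276 to 331). Without overlap between the states, 8 of 45 members were higher in torpor and none lower, against 5.41% and 6.79% of all genes tested. Ndufb8 had 0.25 ± 0.10 (adjusted p = 0.0820), and Ndufb3, Ndufb10 and Ndufb11 had −0.05 ± 0.11, −0.04 ± 0.08 and −0.03 ± 0.08 (adjusted p = 0.804, 0.802 and 0.846). Ndufab1, Ndufa4 and Ndufa4l2, grouped apart, had 0.05 ± 0.10, 0.21 ± 0.08 and 0.14 ± 0.21 and did not pass (adjusted p = 0.766, 0.0809 and 0.673).

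**Figure D2:**
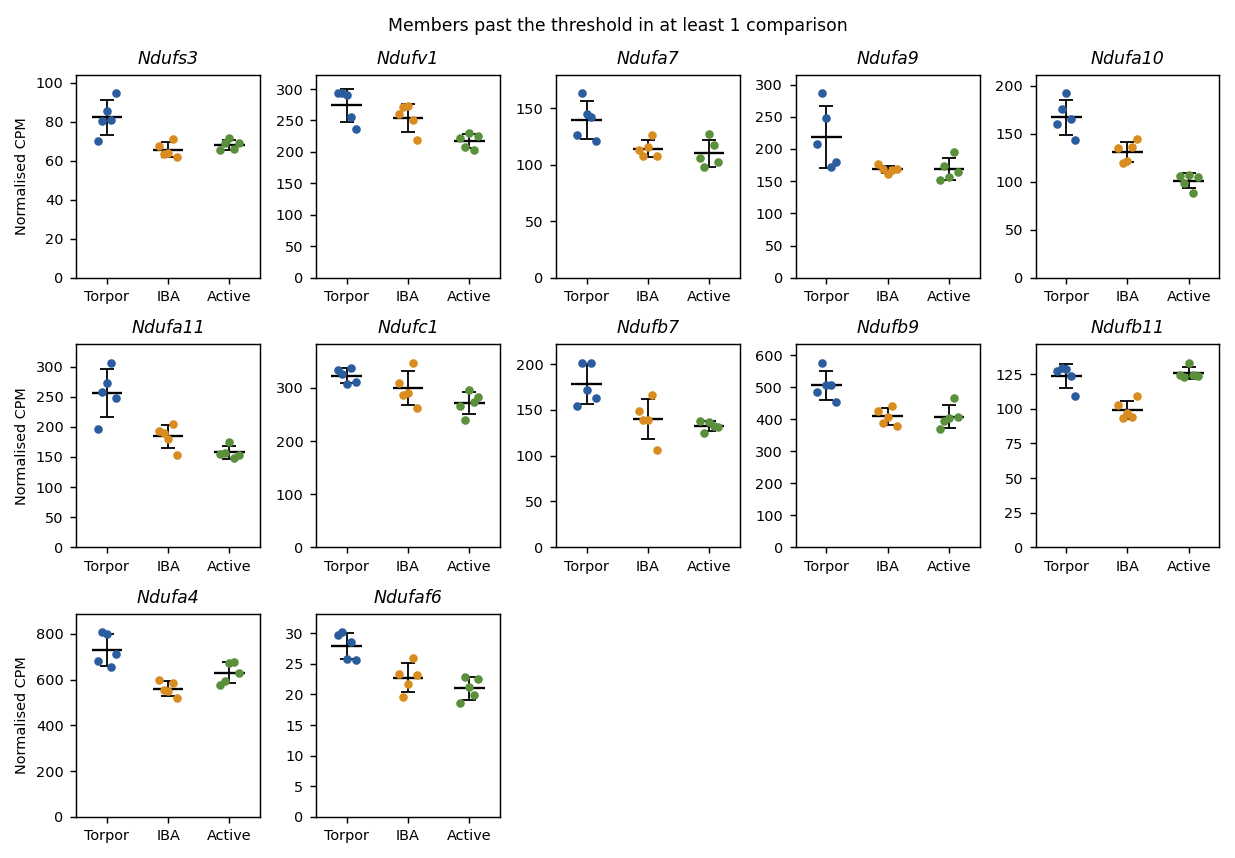
Normalised CPM per library of 12 members past the threshold in at least 1 comparison, by state (Torpor, IBA, Active), with mean and SD (n = 5) and axes that start at 0. Ndufa10 shows 3 steps, with means of 168, 132 and 101, while Ndufb11 is low in IBA alone, with means of 124, 99.2 and 126.

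In torpor against active the assembly factors did not move as a block. Of 7, 1 rose, where 9.73% of all genes tested rose. Of the same 7, 4 were above 0 (median 0.01, against 0.18 for the 38 subunit symbols), and this difference between the groups was not tested. Ndufaf6, needed in human cells for an early membrane step of assembly, stood at 29.7, 30.2, 25.9, 28.5 and 25.7 normalised CPM in torpor libraries 1 to 5, at 23.4, 19.5, 21.8, 25.9 and 23.2 in IBA libraries and at 18.5, 22.8, 21.2, 19.9 and 22.6 in active libraries. No torpor library reached down into the active range. The torpor over active log2 fold change was 0.40 ± 0.10 (limma adjusted p = 0.0127). The other 6 did not pass. Ndufaf1, a partner in the assembly of the membrane arm, had the lowest value, −0.19 ± 0.14, and Ndufaf5, which in human cells hydroxylates an arginine of NDUFS7, the highest of the 6, 0.11 ± 0.13 (adjusted p = 0.341 and 0.570). Ndufaf1 stood at 58.6, 73.5, 62.0, 43.9 and 47.1 in torpor and at 59.2, 62.5, 62.4, 76.2 and 62.0 in the active state, so 3 torpor libraries lay below every active library and none lay above them all. Ndufaf3 and Ndufaf4, which work as a pair early in assembly, had 0.08 ± 0.09 and −0.11 ± 0.13 (adjusted p = 0.577 each). Ndufaf2, a relative of the subunit Ndufa12 that holds its place during assembly, had 0.01 ± 0.15, and Ndufaf7, a methyltransferase in human cells, −0.06 ± 0.10 (adjusted p = 0.968 and 0.721). The summed level of the oligodendrocyte markers moved with this comparison: it was 4328 to 14629.5 normalised CPM in torpor and 2994 to 5375 in the active state, and 9 of the 12 markers rose. With their mean log2 level in the model, 4 members rose, among them Ndufa10, Ndufa11 and Ndufa9, the members' median was 0.23, and 381 of all genes tested rose. The other 7 calls were lost. Ndufaf6, Ndufb7, Ndufv1, Ndufb9 and Ndufa7 then had log2 fold changes of 0.41 ± 0.16, 0.38 ± 0.17, 0.39 ± 0.13, 0.41 ± 0.12 and 0.47 ± 0.14 (limma adjusted p = 0.136, 0.176, 0.0950, 0.0619 and 0.0642). Ndufs3 and Ndufc1 had 0.21 ± 0.13 and 0.16 ± 0.13 (adjusted p = 0.335 and 0.460). The markers' part in each member's difference was not tested otherwise.

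**Figure D3:**
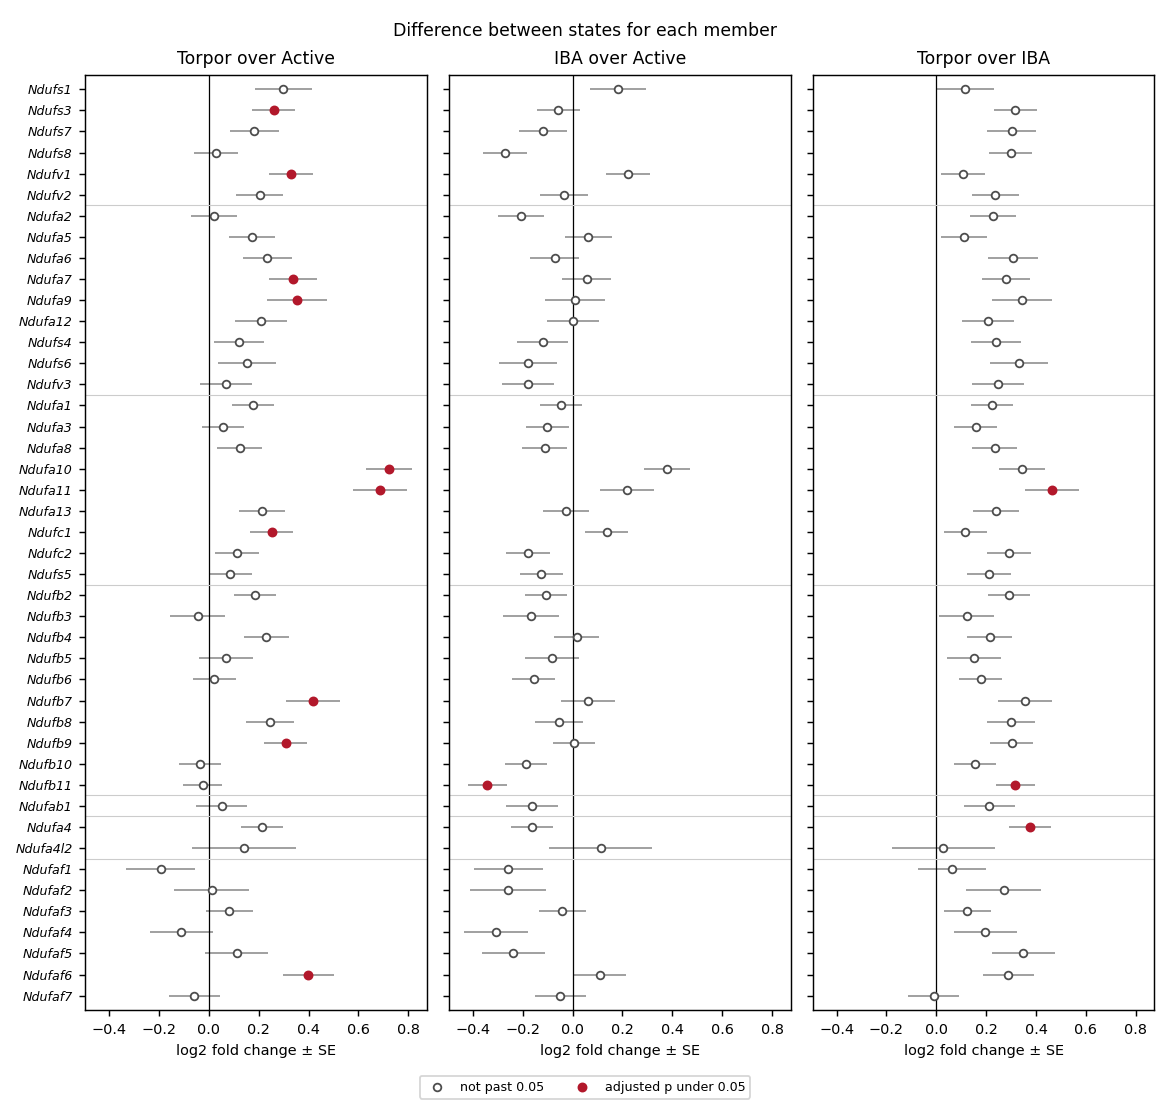
Log2 fold change with its SE for 44 members, ordered by role from the catalytic core at the top to the assembly factors at the bottom, for Torpor over Active, IBA over Active and Torpor over IBA. Filled points passed an adjusted p of 0.05 (10, 1 and 3 of those shown); in Torpor over IBA 43 of 44 points lie right of 0.

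IBA was compared with the active state to ask what remains in warm animals within the hibernation season. Only Ndufb11 passed, 1 of 45 members and lower, where 1.3% of all genes tested passed, 0.703% lower and 0.6% higher. Ndufb11, a subunit of the membrane arm needed for its assembly in human cells, stood at 103, 93.2, 96.9, 93.9 and 109 normalised CPM in IBA libraries 1 to 5 and at 125, 123, 133, 124 and 124 in active libraries 1 to 5. All IBA libraries lay below all active ones. It fell by 0.34 on the log2 scale (SE 0.08, limma adjusted p = 0.0375), and the call held in 10 of 21 alternatives and in 1 of 10 fits that left out 1 library. Ndufs8 also showed no overlap between the states, at 185, 162, 189.7, 168 and 148 in IBA and 199, 210.3, 217, 196 and 205 in the active state, but did not pass (−0.27 ± 0.09, adjusted p = 0.110). Non-overlap on the lower side was thus seen for 2 of 45 members, against 3.44% of all genes tested. Ndufa10 stood at the other end, at 0.38 ± 0.09 with an adjusted p of 0.0501, and was the 1 member whose IBA libraries all lay above the active ones, against 3.56% of all genes tested. It was chosen for mention after its values were seen. It passed in 5 of 21 alternatives, with adjusted p from 0.00738 to 0.126. The members' median was −0.07 with 15 of 45 above 0, and that of the assembly factors −0.24 with 1 of 7 above 0. Over all genes tested the median was 0.00, with 50.6% above 0. Per structural group, medians lay between −0.16 for Ndufab1 alone and −0.03 for the Ndufa4 pair.

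Torpor was compared with IBA, the cold and warm phases of hibernation. Here 3 of 45 members rose and none fell, where 2.94% of all genes tested passed, 0.961% higher and 1.97% lower. The members' median log2 fold change was 0.24, with 44 of 45 above 0, against 0.00 and 50.3% over all genes tested. Ndufa4, of cytochrome c oxidase, stood at 683, 808, 799, 653 and 711 normalised CPM in torpor libraries 1 to 5 and at 598, 555, 548, 583 and 519 in IBA libraries 1 to 5. The states did not overlap, and the log2 fold change was 0.38 ± 0.08 (limma adjusted p = 0.0247). Ndufb11 stood at 128, 129.8, 128, 124 and 109 in torpor, with library 5 level with the highest IBA library, and rose by 0.32 ± 0.08 against IBA (adjusted p = 0.0335). Ndufa11 rose by 0.47 ± 0.11 (adjusted p = 0.0286), although torpor library 1, at 197, lay within the IBA range. The calls changed when single libraries were left out. Without torpor library 2, torpor library 3, IBA library 2 or IBA library 3 no member passed. All genes called then numbered 246, 204, 190 and 159, instead of 455. Without torpor library 4 or IBA library 5 only 1 member passed, with 276 and 268 of all genes. Without IBA library 1 or 4 there were 2, with 238 and 407 of all genes. With torpor library 1 or 5 left out, 5 and 4 members passed, with 670 and 337 of all genes. Without torpor libraries 4 and 5 the count was 4, with 465 of all genes. Over the alternatives 42 to 45 of 45 members lay above 0. Medians ran from 0.15 to 0.30, the lowest under scaling by library size alone. The alternatives reuse the same libraries, and many members were high or low in the same ones. These signs are thus no independent results.

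In the same comparison the structural groups lay close to each other. The medians were 0.24 for the catalytic core, 0.25 for the matrix arm, 0.23 for the near part of the membrane arm and 0.25 for the Ndufb subunits, and all 38 subunit symbols were above 0. The lowest of the 38 was Ndufa4l2 at 0.03 ± 0.21, and the lowest of the core and accessory subunits Ndufv1 at 0.11 ± 0.09 (limma adjusted p = 0.958 and 0.541). Near the threshold but not past it were Ndufa10 at 0.34 ± 0.09, Ndufs3 at 0.32 ± 0.09 and Ndufb9 at 0.30 ± 0.09 (adjusted p = 0.0506, 0.0509 and 0.0598). The assembly factors had a median of 0.20, from −0.01 ± 0.10 for Ndufaf7 to 0.35 ± 0.13 for Ndufaf5, and none passed (adjusted p = 0.969 and 0.132). At an unadjusted p under 0.05, 28 of 45 members and 3012 of all 15501 genes tested lay higher or lower. DESeq2 on the recovered reads called 11 members and 1033 genes, and edgeR with TMM called 5 members and 479 genes. Without overlap between the states, 5 members were higher in torpor (Ndufa4, Ndufb2, Ndufb8, Ndufb9 and Ndufs6) and none lower, against 1.9% and 3.86% of all genes tested. The oligodendrocyte markers were at 4328 to 14629.5 normalised CPM in torpor and 3671 to 9523 in IBA, and none of the 12 passed. With their level in the model 7 members rose, and 278 of all genes tested rose instead of 149. Of the other marker lists, 3 of 11 endothelial markers fell in torpor against IBA (Flt1, Ocln and Tek, limma adjusted p = 0.0141, 0.0433 and 0.0470) and 1 of 8 microglia markers rose (C1qa, adjusted p = 0.0375), while no neuron or astrocyte marker passed. Their part in the members' differences was not tested.

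**Figure D4:**
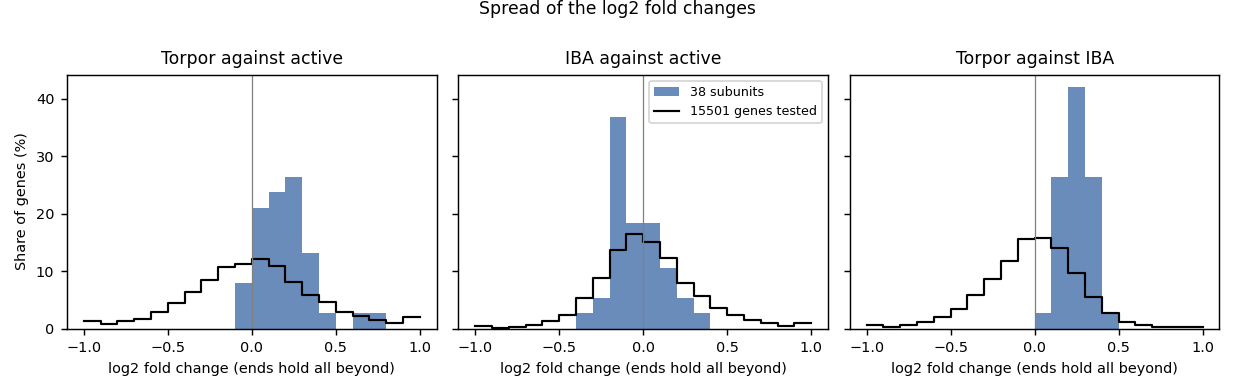
Share of genes in percent by log2 fold change, in bins of 0.1, for the 38 subunit symbols (bars) and the 15501 genes tested (line), in Torpor against active, IBA against active and Torpor against IBA. The subunits are narrower than all genes in each panel and centre at medians of 0.18, −0.06 and 0.24, while all genes centre near 0.

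In the order of the state means, torpor was highest for 39 of the 45 members. For 25 members the order was torpor, active, IBA, and for 14 it was torpor, IBA, active. Over all 15501 genes tested these orders held for 2050 and 3873. The stepwise order with IBA between torpor and the active state included Ndufa10, Ndufa11, Ndufv1, Ndufs1 and Ndufc1. The 3 subunits whose active mean was highest were Ndufb3, Ndufb10 and Ndufb11, all of the far membrane arm. The 2 comparisons with the active state share the active libraries, and the 2 with torpor the torpor libraries, so these orders are no independent results.

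The spread within a state was described for each member. The median SD between libraries of a state was 0.13 on the log2(value + 1) scale for the 38 subunit symbols and 0.19 for the assembly factors, against 0.24 over all genes tested. The genes tested were not matched to the members in level, so the part of abundance in this gap was not tested. Ndufb11 was the steadiest at 0.09 and Ndufa4l2, the member with the fewest reads, the least steady at 0.33. Torpor library 2 was the highest torpor library for 25 of 38 subunit symbols and 6 of 7 assembly factors, and library 5 the lowest for 19 subunit symbols. IBA library 4 was highest for 20 subunits and IBA library 5 lowest for 22. Active library 4 was highest for 20, and active libraries 1 and 2 were lowest for 15 and 14. The median deviation of the subunits from their own means was 0.31 in torpor library 2 and 0.02 in torpor library 5, 0.02 in IBA library 4 and −0.20 in IBA library 5, and 0.07 in active library 4 and −0.15 in active library 2.

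**Figure D5:**
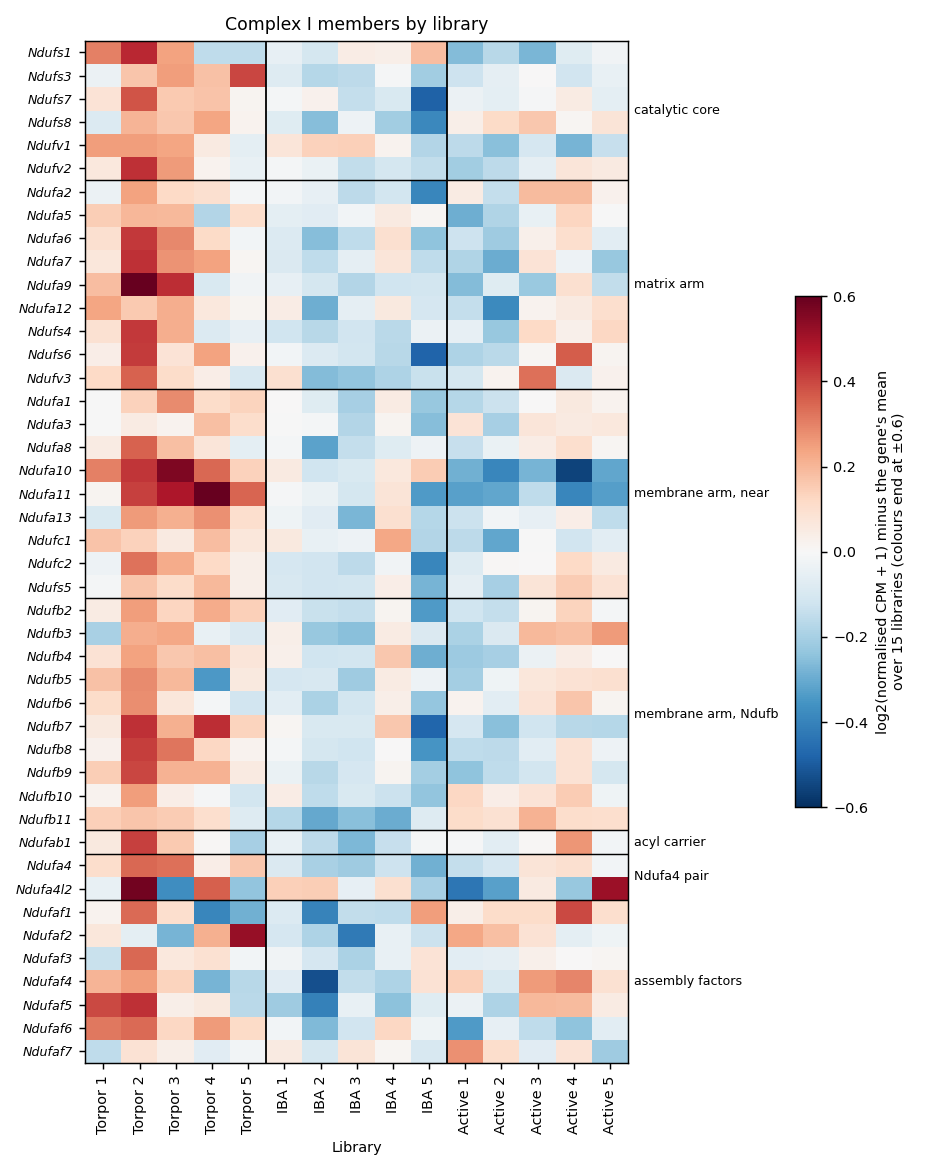
Log2(normalised CPM + 1) of 44 members minus each one's mean over the 15 libraries, with genes in rows by role and libraries in columns (Torpor, IBA, Active; red is higher, blue lower, colours end at ±0.6). Torpor library 2 is red over most rows and IBA library 5 blue over many subunits, and Ndufa10 and Ndufa11 differ most between the states.

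Torpor libraries 4 and 5, the ones with the most oligodendrocyte marker RNA, divided the members. For 16 of 45 members both lay below torpor libraries 1 to 3, and for 2 both lay above, where this held for 19.9% and 21.4% of all genes tested. The 16 included Ndufs1, Ndufv1, Ndufv2 and Ndufs4 of the matrix arm and the factors Ndufaf1 and Ndufaf4, and the 2 were Ndufa3 and Ndufaf2. In Ndufa11 and Ndufb7, by contrast, torpor library 4 was the highest of its state, at 307 and 202 normalised CPM. This split was chosen for description after the values were seen. The library pattern of Lsm4, an RNA-binding protein gene that rose in torpor (IBA libraries 1, 4 and 5 above 2 and 3, and torpor library 1 lowest in torpor) was met by 2 of 45 members, Ndufaf3 and Ndufb3, and by 4.10% of all genes tested, and neither of these members passed in any comparison.

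Other genes of the pathway were compared in the same fits. Of 9 measured assembly factors of complex I without an Nduf symbol, 1 rose and 1 fell in torpor against active. Among all genes tested, 9.73% rose and 9.74% fell in this comparison. Acad9, which works with Ndufaf1 in building the membrane arm, averaged 33.2 ± 5.14 normalised CPM across torpor libraries, 28.4 ± 3.41 across IBA libraries and 21.0 ± 1.97 across active libraries (SD, n = 5), and rose by 0.62 ± 0.12 in torpor against active (limma adjusted p = 0.00207). Dmac1, a factor of the far membrane arm, stood at 59.7 ± 10.5, 54.1 ± 3.68 and 77.2 ± 7.65 in the same order, and fell by 0.38 in torpor and by 0.50 in IBA against active (SE 0.11 each, adjusted p = 0.0259 and 0.0364). None of the Uqcr, Cyc1 and Cox symbols looked up for complexes III and IV was among the genes of the deposited table. Of 18 subunits of complexes II and V, 5 rose and none fell in torpor against active. Their median was 0.20, close to the 0.18 of the complex I subunits. The 5 that rose were Sdha and Sdhb of succinate dehydrogenase, at 0.36 ± 0.10 and 0.44 ± 0.10, and Atp5b, Atp5d and Atp5o of ATP synthase, at 0.26 ± 0.09, 0.32 ± 0.10 and 0.27 ± 0.08 (adjusted p = 0.0150, 0.00679, 0.0466, 0.0304 and 0.0312). In torpor against IBA none of the 18 passed and their median was 0.25, beside 0.24 for the complex I subunits. Of 12 regulators of nuclear genes of respiration, none rose and 2 fell in torpor against active: the transcription factors Yy1 and Creb1 fell by 0.44 and 0.43 (SE 0.12 each, adjusted p = 0.0130 and 0.0164). Ppargc1a, a coactivator that drives mitochondrial gene expression, stood at 37.3 ± 5.17 in torpor libraries, 39.3 ± 3.44 in IBA libraries and 37.98 ± 6.06 in active libraries (−0.02 ± 0.12 in torpor against active, adjusted p = 0.922).

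Markers of other cell types were measured beside these results. In torpor against active, 9 of 12 oligodendrocyte, 3 of 13 neuron and 2 of 8 microglia markers rose and none of these fell. Of the astrocyte and endothelial markers, 1 of 9 and 3 of 11 fell and none rose. All genes tested split into 9.73% higher and 9.74% lower. The neuron markers summed to 6706 to 7220.4 normalised CPM in torpor libraries, 5763 to 6519 in IBA libraries and 5423 to 6653 in active libraries. On this scale every torpor library lay above every IBA and active library, as for the subunits. The neuron markers' mean log2 level was 7.98 to 8.21 in torpor, 7.73 to 7.95 in IBA and 7.26 to 7.93 in active libraries. There too every torpor library lay above every IBA and active library. These sums and mean levels also hold the scaling factor per library, and the markers' plain share of the counted reads was not computed. The astrocyte markers summed to 5141 to 6985 in torpor libraries, 4899.6 to 9899 in IBA libraries and 7543 to 14352 in active libraries. Gfap, the 1 astrocyte marker that fell, weighs much in these sums, with means of 1847 in torpor, 2349 in IBA and 5887 in active libraries. In mean log2 level the astrocyte markers overlapped between states, at 7.70 to 8.45 in torpor, 7.82 to 8.48 in IBA and 8.19 to 8.61 in active libraries. Endothelial markers summed to 683 to 964, 725 to 926 and 646 to 965, and microglia markers to 224 to 404, 258 to 404 and 214 to 286, in the same order of states. No marker list was at 0 in any library, and the part of neuron and astrocyte RNA in the members' differences was not tested.

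In the authors' deposited table, which tests the 3 states jointly, 12 of the 45 members had a false discovery rate under 0.05, against 2481 of all its 16993 genes. The smallest were Ndufa10, Ndufa11 and Ndufb11 in the authors' deposited table, at 5.77e-04, 0.00188 and 0.0107. Symbols of 43 members were found in a reference name table of the species, and 14 of them overlap another gene there. Among the members that passed, these are Ndufa7 (with Rps28), Ndufa9 (Akap3), Ndufs3 (Kbtbd4), Ndufc1 (Mgarp and Naa15) and Ndufaf6 (LOC120892946). Overlap was taken over whole gene spans and not over exons, and LOC120892946 is not among the genes of the deposited table. As no strand setting is given in the sources used here, it is not known whether such pairs shared reads.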

How the data were processed

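RNA of the supraoptic nucleus was sequenced in 15 libraries. The submitters' processing notes name edgeR 3.38.4 in R 4.2.1, Subread 2.0.1 with featureCounts, STAR 2.7.7a and Trimmomatic 0.39. The build, annotation and strand setting were not given in the sources used here. Per the file headers, the deposited table holds a signal per library (normalised CPM), log2 fold changes with a mean log2 level, and, for the test over all states at once, the F score, the p-value and the false discovery rate. Values in a library are multiples of what 1 read is worth, and whole reads were recovered (100% of values within 0.1 read).

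Values were tested as log2(value + 1) with limma-trend (limma 3.58.1 in R 4.3.3, trend and robust, two-sided, Benjamini-Hochberg, threshold 0.05) over 15501 genes with at least 1 normalised CPM in at least 5 libraries; 1492 were removed. The fit held all 15 libraries and no covariate, and p-values reflect the spread between libraries. Alternatives used edgeR 4.0.16 and DESeq2 1.42.0 on the recovered reads and the settings in the closing section. The fits were tested on simulated data. No library pair of a state agreed within sampling noise (lowest chi-square 15.0 per degree of freedom).

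Members, lists and alternatives were chosen with earlier results of these data known. Members past the threshold are named in each comparison, except 1 that is not reported here by name or in the plots of single genes but is counted in all group summaries, beside the highest and lowest of the others in each structural group, and of other lists up to 3 genes with the smallest p; further names, among them Sdha, Sdhb, Atp5b, Atp5d, Atp5o and Ppargc1a, were chosen after their values were seen. Promoter motifs were not analysed here.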

Additional observations from a re-analysis of the deposited data

Results flagged for a closer look

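Among 135 groups (45 members in 3 states), 6 had a library set apart from the other 4 of its state, where chance gives about 1 in 20. Ndufa3 stood at 70.0 normalised CPM in active library 2, against 83.7 to 85.2 in the other active libraries. Ndufab1 and Ndufaf1 stood at 267 and 76.2 in active library 4, against 212 to 223 and 59.2 to 62.5 in the others. Ndufb11 and Ndufv3 stood at 133 and 142 in active library 3, against 123 to 125 and 105 to 115. Ndufa5 stood at 369 in torpor library 4, against 449 to 479 in the other torpor libraries. Of these only Ndufb11 passed in a comparison.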

How the results depend on the processing

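No member that passed changed direction in any alternative of its comparison; members near 0 that did not pass could, as 31 to 43 of 45 lay above 0 in torpor against active. The members called in torpor against active (11, with 3018 of all genes) numbered 7 with only the 10 libraries compared (2294) or scaled by library size (3325). They numbered 4 with the oligodendrocyte covariate (757 of all genes). With 1 library left out they numbered 6 to 10 (2278 to 3315 of all genes), lowest at 6 without torpor library 3. In IBA against active (1, with 202 of all genes) they numbered 2 with pseudocount 0.1 (206) or only the 10 libraries compared (385). They also numbered 2 with edgeR with TMM (214), DESeq2 (862) or library size (235). They numbered 0 with the replicate block (37) or the covariate (18), and 0 to 1 with 1 library left out (26 to 162). In torpor against IBA (3, with 455 of all genes) they numbered 5 with pseudocount 0.1 (473) or any of the 3 edgeR fits (476 to 482). They numbered 11 with DESeq2 (1033) and 7 with the covariate (657). They numbered 0 with only the 10 libraries compared (262) or the replicate block (155), and 0 to 5 with 1 library left out (159 to 670). With library size alone 859 genes passed there, 92 higher and 767 lower, against 149 and 306. The cause was not tested. Same-numbered libraries share only a number: their deviations from the state means correlated across genes with r from −0.32 to 0.20 (3 of 15 pairs over 0.1), and libraries matched best with their own number in 6 of 30 cases. The replicate block left 8 members in torpor against active, and 2285 of all genes.

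Depth limits Ndufa4l2 most, with 23 reads in its lowest library.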
